A study of Mus musculus with 5 samples.

Results

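Transcripts of 8 cathepsins (Ctsb, Ctsd, Ctsl, Ctss, Ctsz, Ctsa, Ctsc and Ctsh), of the asparaginyl endopeptidase legumain (Lgmn) and of the inhibitor cystatin C (Cst3) were examined in immune cells sorted from the brain. These 10 genes were taken by symbol from 52542 genes, of which 16856 had at least 1 UMI in a kept cell. The question was how much of each transcript the different myeloid cells of these brains held, and which protease led in each kind of cell.

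All 5 libraries, AB5863, AB5864, AB5865, AB5867 and AB5876, carry the same labels: DM-hTAU mice, 9 months of age, treated with anti-PD-L1 (aPDL1), an antibody that blocks an immune checkpoint ligand. DM-hTAU mice are heterozygous for a human tau gene with a pair of mutations linked to frontotemporal dementia, expressed from the natural tau promoter on a mixed BALBc-C57/BL6 background. Cells were sorted as CD45high CD11bhigh into 384-well plates and profiled by MARS-seq, which counts the 3′ ends of transcripts with unique molecular identifiers (UMIs). There is 1 group and no untreated library among those analysed here, so every comparison is between kinds of cells, not between treatments, and nothing ties a library to a mouse. The tissue label is brain, although the label on cell preparation speaks of thymus and intestine.

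Cathepsins are peptidases of the endolysosome, where microglia and macrophages break down ingested protein. Cathepsins B, C, H, L, S and Z (also named X) use a cysteine in the active site, cathepsin D an aspartate and cathepsin A a serine. Cathepsin S stays active at neutral pH and trims the invariant chain from MHC class II molecules, cathepsin C removes dipeptides and activates serine proteases of granules, and legumain cuts after asparagine and processes other cathepsins. Cystatin C is a secreted inhibitor of cysteine cathepsins and one of the most abundant transcripts of microglia.

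Of 1900 wells with a cell, 825 cells with at least 500 UMIs were kept: 68, 87, 285, 71 and 314 in the order of the libraries above, with median depths of 680, 759, 1168, 651 and 1268 UMIs. AB5865 and AB5876 thus stood apart as the deeper libraries. All 384 cell barcodes were used in each of the 5 libraries, and no pair of pool and cell barcode was shared. The 20 wells without a cell held 320 UMIs, of which 7 were of the 10 genes. Levels are given as UMIs per 10000 with an exact 95% Poisson interval that covers counting error only. Since each UMI is 1 molecule counted at its 3′ end, levels of different genes were compared per UMI, without division by length.

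Cells were placed in classes by marker genes that include none of the 10. The microglia-like class held 348 cells, which had 125 UMIs per 10000 of the microglia markers (P2ry12, Tmem119, Siglech and others). The border macrophage-like class held 113 cells, with 74.4 per 10000 of markers such as Pf4, Mrc1 and Cd163, but these cells also held microglia markers at 27.5 per 10000. A further 46 cells carried Cd209a and other dendritic cell or monocyte-derived markers (Cd209a-type), 30 were monocyte-like, 30 neutrophil-like, and 167 had MHC class II transcripts and stayed below the other gates (MHC class II only). These last cells were not free of the other markers, with microglia markers at 13.5 per 10000. The remaining 91 cells were left ungated. The labels name only CD45+ CD11b+ brain immune cells, and the sort was meant to enrich monocyte-derived macrophages. Microglia-like cells were the largest class, and the paper also reports clusters of activated microglia and of neutrophils. The paper reads cells with Mrc1, Lyve1, Stab1 and Siglec1, which are among the border markers here, as infiltrating monocyte-derived macrophages. Of the border macrophage-like cells, 109 of 113 came from AB5865 and AB5876. Astrocyte and neuron markers summed to 1 and 3 UMIs, with Aqp4, Gfap, Aldoc, Snap25 and Syt1 at 0, and Hba-a1, Hba-a2 and Hbb-bs of erythrocytes were also at 0. B cell markers held 291 UMIs with Cd79a and Ms4a1 at 0, endothelial markers 107, oligodendrocyte markers 68 and T or NK cell markers 53, each under 6 per 10000 in every class.

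Over all kept cells, Cst3 was the fifth most abundant of all genes and Ctss the twelfth. Cst3 held 11775 UMIs (134 ± 40.1 per 10000, mean ± SD of 5 libraries) and Ctss 6086 (57.5 ± 14.9). Ctsd (3048 UMIs, rank 29) and Ctsb (2794, rank 31) followed, then Lgmn (1318), Ctsc (1232), Ctsz (998), Ctsh (734), Ctsa (636) and Ctsl (423, rank 327). All 10 genes lie on GRCm38 as protein-coding genes. Ctss is at chr3:95526786-95556403 on the plus strand, Ctsd at chr7:142375911-142388038 on the minus strand, Ctsb at chr14:63122462-63145923 on the plus strand and Cst3 at chr2:148871722-148875692 on the minus strand. Ctsa overlaps Pltp and Neurl2, Ctsb overlaps Fdft1, Ctsz overlaps Nelfcd and Ctsc overlaps Gm26522, each on the opposite strand. Ctss holds the pseudogene Hmgb1-ps5, Ctsd overlaps Gm49369, and Ctsl overlaps Gm47123 and Gm49230, so reads in those stretches are uncertain.

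Genes of lysosomal enzymes are known targets of the transcription factors TFEB and TFE3, which bind an E-box with the letters CACGTG, so the promoter windows of RefSeq (250 bases before to 50 after each start, GRCm38.p6) were searched for it on both strands. Windows were found for 8 of the 10 genes, without Ctsb and Ctsh. The letters were present in 4 of the 10 windows of these 8 genes, one each of Ctsa, Ctsd, Ctsl and Lgmn, compared with 7.15% of 32851 windows of all genes. The longer form GTCACGTG, which contains the first, was present in 3 of the 10 windows (Ctsa, Ctsd and Lgmn), compared with 2.25% of windows. The matches are given on the strand of each gene with the E-box in capitals, since these 4 genes are compared between classes further on.
Ctsd, 98 bases before the start, chr7:142387908-142387937, minus strand: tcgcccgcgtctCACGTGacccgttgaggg
Ctsd, 245 bases before the start, chr7:142388048-142388077, minus strand: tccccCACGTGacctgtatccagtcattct
Ctsl, 236 bases before the start, chr13:64370739-64370768, minus strand: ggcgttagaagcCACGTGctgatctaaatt
Lgmn, 49 bases before the start, chr12:102439124-102439153, minus strand: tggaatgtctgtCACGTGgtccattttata
Ctsa, 12 bases before the start, chr2:164833749-164833778, plus strand: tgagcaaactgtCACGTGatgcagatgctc
Ctsa, 6 bases after the start, chr2:164833766-164833795, plus strand: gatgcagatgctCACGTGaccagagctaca
The Ctsd match nearer to the start lies in the 5′ UTR exon of the GENCODE transcript Ctsd-202 and the other lies before the gene. The Ctsl match is in a UTR exon of Ctsl-203 and in an intron of Ctsl-205. The Lgmn match is in an intron of Lgmn-201, since RefSeq gives Lgmn and Ctsa more than 1 start and only the inner one of each holds the letters. Both Ctsa matches are in a UTR exon of Ctsa-201. The bases just after the start were found in a GENCODE transcript for the Ctsd window. They were not found for the matching windows of Ctsa, Ctsl and Lgmn, so those starts are less certain. A match is a run of letters, no binding was measured and the shares of windows were not tested.

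In microglia-like cells, Cst3 was the most abundant of the 10 transcripts and Ctss the leading protease, followed by Ctsd, Ctsb and Lgmn. Together the 10 genes made up 366 of every 10000 UMIs. Cst3 was at 163 per 10000 (95% interval 159 to 166), with 227, 228, 141, 234 and 153 in the 5 libraries. The 3 shallower libraries were all above the 2 deeper ones. The median depth of the microglia-like cells was 690, 899 and 668 UMIs in the shallower and 1256 and 1397 in the deeper libraries, and within cells of 500 to under 1000 UMIs the values were 226, 239 and 242 against 166 and 183. The part of depth in this split was otherwise not tested. The mitochondrial share of UMIs lay between 8.28% and 9.32% in all 5.

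Ctss was at 69.9 per 10000 (67.6 to 72.3) in microglia-like cells, with 102, 58.1, 71.0, 63.3 and 67.3 by library. Ctsd, the main aspartic protease of the lysosome, was at 42.4, with 57.9, 32.7, 38.7, 37.4 and 45.8 by library. Ctsb, a cysteine protease with both endopeptidase and carboxydipeptidase activity, was at 29.5, with 33.3, 16.3, 30.0, 17.1 and 32.3. The order Cst3, Ctss, Ctsd and Ctsb held in 5 of 5 libraries, so the ranking of these 4 was steadier than their levels. Lgmn followed at 18.2, below Ctsb in 4 of 5 libraries.

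The other 5 genes were close to each other in microglia-like cells. Ctsz, a carboxypeptidase, was at 10.9 per 10000 and Ctsc at 10.6, with intervals that overlapped and with Ctsz higher in 2 of 5 libraries. Ctsh, an aminopeptidase, was at 8.05, Ctsa, which protects lysosomal sialidase and galactosidase, at 7.07, and Ctsl, an endopeptidase, at 6.31. The Poisson intervals of Ctsh and Ctsa overlapped, as did those of Ctsa and Ctsl. Of these 5, Ctsc had the largest SD over libraries, 4.96, with 9.19 in AB5876 and 21.1 in AB5863.

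**Figure D1:**
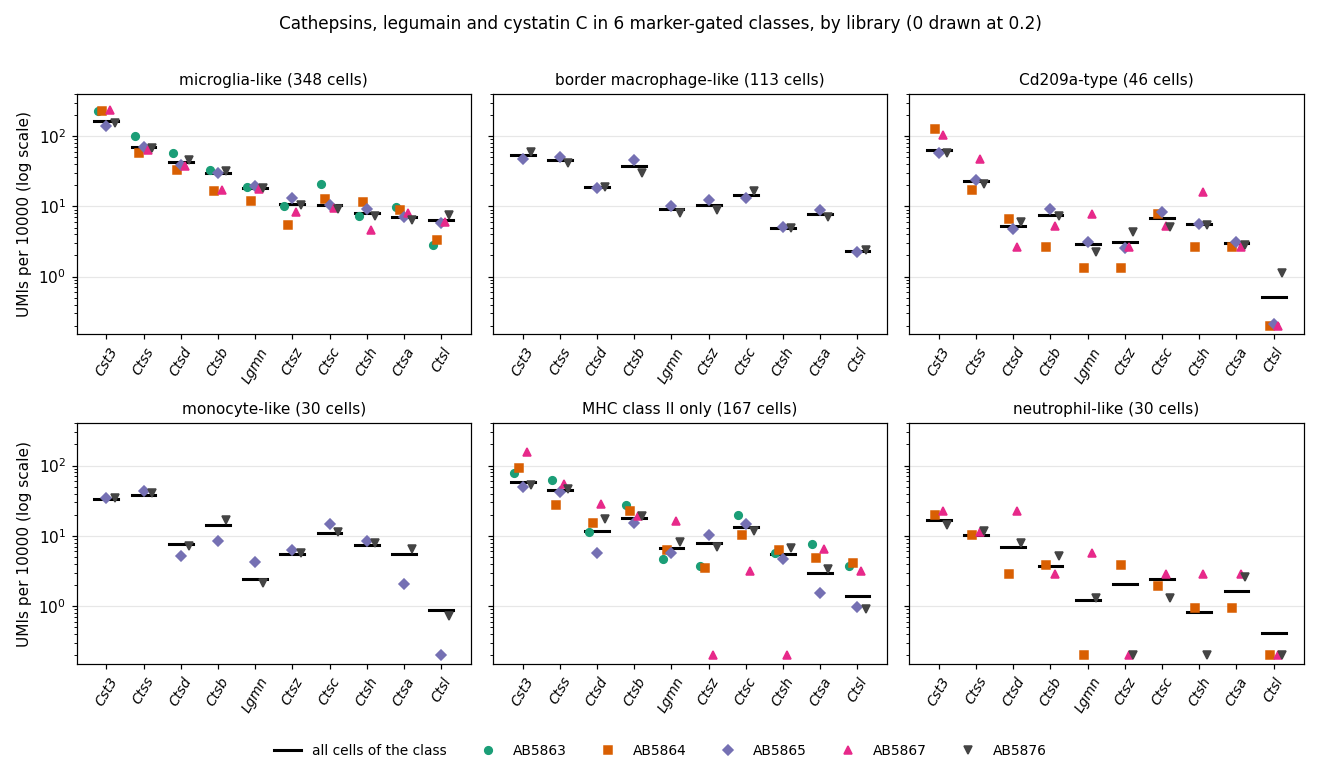
Level of the 10 transcripts (UMIs per 10000, log axis) in the 6 classes; points are libraries with at least 5 cells of the class, black lines all cells of the class. The black line of Ctss lies above those of the other proteases in every panel, and Cst3 reaches 163 in microglia-like cells but 16.8 in neutrophil-like cells.

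Per cell, thinned to 500 UMIs so that depths match, Cst3 was found in 98.0% of 348 microglia-like cells (exact binomial interval 95.9 to 99.2), Ctss in 92.2%, Ctsd in 72.4%, Ctsb in 62.4% and Lgmn in 57.8%. Ctsz, Ctsc, Ctsh, Ctsa and Ctsl were found in 23.9% to 31.9%. Before thinning the share for Cst3 was 99.7% and for Ctsl 39.9%. In the 30 neutrophil-like cells, the class with the lowest level of the 10 genes together, the thinned shares were 56.7% for Cst3, 26.7% for Ctss and 26.7% for Ctsd, at a median depth of 668 UMIs against 1110 in microglia-like cells. Every thinned share in microglia-like cells was thus above that in neutrophil-like cells.

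Ctss was the leading protease in all 6 classes, and the runner-up differed between them. Ctss led in 5 of 5 libraries of microglia-like cells, 2 of 2 of border macrophage-like, 4 of 4 of Cd209a-type, 2 of 2 of monocyte-like, 5 of 5 of MHC class II only and 2 of 3 of neutrophil-like cells. In neutrophil-like cells the intervals of Ctss and Ctsd overlapped, and without AB5864 both were level. Its lead was narrowest in border macrophage-like cells, at 1.23 Ctss UMIs per Ctsb UMI (1.10 to 1.39), and widest in Cd209a-type cells, at 3.05 (2.34 to 4.03). Ctss made up 30.3% to 40.8% of the protease UMIs in every class. Cst3 stood above Ctss in all libraries of 4 classes, in 1 of 2 libraries of border macrophage-like cells and in 0 of 2 of monocyte-like cells.

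The second place went to Ctsd in microglia-like cells, in 5 of 5 libraries, and to Ctsb in border macrophage-like cells, in 2 of 2. The ratio of Ctsb to Ctsd UMIs was 0.696 (0.650 to 0.745) in microglia-like cells, with 0.576, 0.50, 0.775, 0.458 and 0.707 by library. In border macrophage-like cells it was 1.97 (1.70 to 2.30), with 2.48 in AB5865 and 1.58 in AB5876. The libraries of the 2 classes did not overlap. Monocyte-like cells had a ratio of 1.86 (1.21 to 2.89), MHC class II only cells 1.52 (1.28 to 1.81) and Cd209a-type cells 1.42 (0.985 to 2.07). Among MHC class II only cells the libraries ranged from 0.667 to 2.60, and among Cd209a-type cells from 0.40 to 2.00, so both classes overlapped with microglia-like cells. Neutrophil-like cells had 0.529 (0.208 to 1.26).

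**Figure D2:**
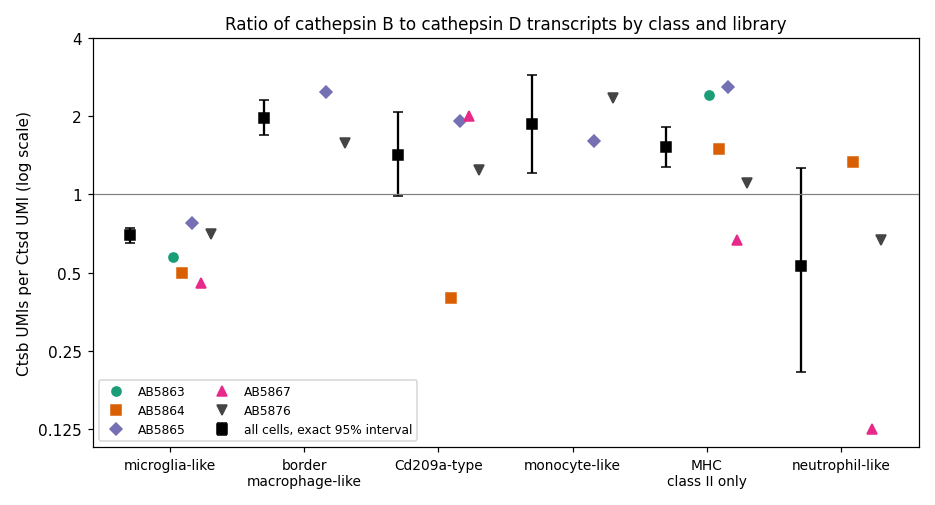
Ctsb UMIs per Ctsd UMI (log axis) by class; squares are all cells of a class with an exact 95% interval, coloured symbols the libraries with at least 5 cells. All 5 microglia-like libraries lie below 1 and both border macrophage-like libraries above it.

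The inhibitor and its targets were in different proportion between classes. There were 1.20 Cst3 UMIs for each UMI of a cysteine cathepsin in microglia-like cells and 1.37 in Cd209a-type cells, but 0.466 in border macrophage-like, 0.434 in monocyte-like, 0.640 in MHC class II only and 0.854 in neutrophil-like cells. Against all 9 proteases, the ratio in microglia-like cells was 0.860, 1.42, 0.691, 1.36 and 0.751 by library, compared with 0.285 and 0.438 in the 2 libraries of border macrophage-like cells. These groups did not overlap. MHC class II only cells, at 0.443 to 1.17 by library, overlapped with microglia-like cells.

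Border macrophage-like cells held less Cst3, Ctsd, Ctsl, Lgmn and Ctss than microglia-like cells of the same libraries and more Ctsc, while Ctsb, Ctsa, Ctsz and Ctsh did not pass the test. UMIs were summed per library and class and tested with edgeR over 2226 genes, with the library as a block, in AB5865 and AB5876 (109 against 245 cells). With 2 libraries, the p-values rest mainly on a spread pooled over genes. Of the 10 genes, 5 were lower, where 2.92% of all genes tested were, and 1 was higher, where 2.79% of all were. The median log2 fold change was -0.60 over the 10 genes and -0.02 over all genes tested.

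Cst3 was at 47.6 and 60.2 per 10000 in border macrophage-like cells, compared with 141 and 153 in microglia-like cells (log2 fold change -1.42 ± 0.19, SE, adjusted p = 1.58e-11). Ctsd was at 18.5 and 18.6 against 38.7 and 45.8, with a log2 fold change of -1.15 ± 0.19 (adjusted p = 4.24e-07). The classes did not overlap for either gene, nor for Ctsl, Lgmn, Ctss, Ctsc or Ctsh. The share of all genes without overlap is not given here. Both Cst3 and Ctsd were also called by DESeq2 and under all 12 alternatives. Of these alternatives, 3 left out a library not used here and could not differ. Ctsl was at 2.27 and 2.41 against 5.89 and 7.64 (log2 fold change -1.49 ± 0.30, adjusted p = 7.35e-05). Lgmn was at 10.1 and 7.95 against 19.3 and 18.1 (-1.02 ± 0.21, adjusted p = 0.000129). For Ctss the values were 50.4 and 41.7 against 71.0 and 67.3 (-0.56 ± 0.18, adjusted p = 0.0448). The calls of Ctsl, Lgmn and Ctss were not made by DESeq2, whose adjusted p was 0.388, 0.187 and 0.406. Lgmn and Ctss were also not called with a minimum of 300 or of 1000 UMIs, and Ctss not without the block.

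Ctsc was the gene called higher in border macrophage-like cells, at 13.3 and 16.5 per 10000 compared with 10.3 and 9.19 (log2 fold change 0.65 ± 0.21, adjusted p = 0.0400), but this call was lost under 8 of 12 alternatives. Of the 12, 3 left out a library not used here and could not lose it. For Ctsb the log2 fold change was 0.28 (95% interval -0.08 to 0.64, adjusted p = 0.501), for Ctsa 0.27 (-0.20 to 0.73), for Ctsz -0.11 (-0.54 to 0.31) and for Ctsh -0.64 (-1.14 to -0.14, adjusted p = 0.127). Ctsb was higher than in microglia-like cells in AB5865 (45.9 against 30.0) and lower in AB5876 (29.4 against 32.3). The microglia markers in border macrophage-like cells were at 22.1% of their microglia-like level, while Ctsb was at 125%, Ctsc at 139%, Ctsa at 109% and Ctsz at 95%. Cst3, the lowest of the 10, was at 32.9%. The gates use the microglia markers, so the 22.1% is partly set by the gates and does not measure microglial RNA. The part of microglial RNA in these levels was not tested. Mitochondrial transcripts made up 11.9% of UMIs in border macrophage-like and 8.74% in microglia-like cells. Of the genes with an E-box shown above, Ctsd, Ctsl and Lgmn were lower and Ctsa was not called, and Cst3 and Ctss, which were lower too, had no match in their windows.

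**Figure D3:**
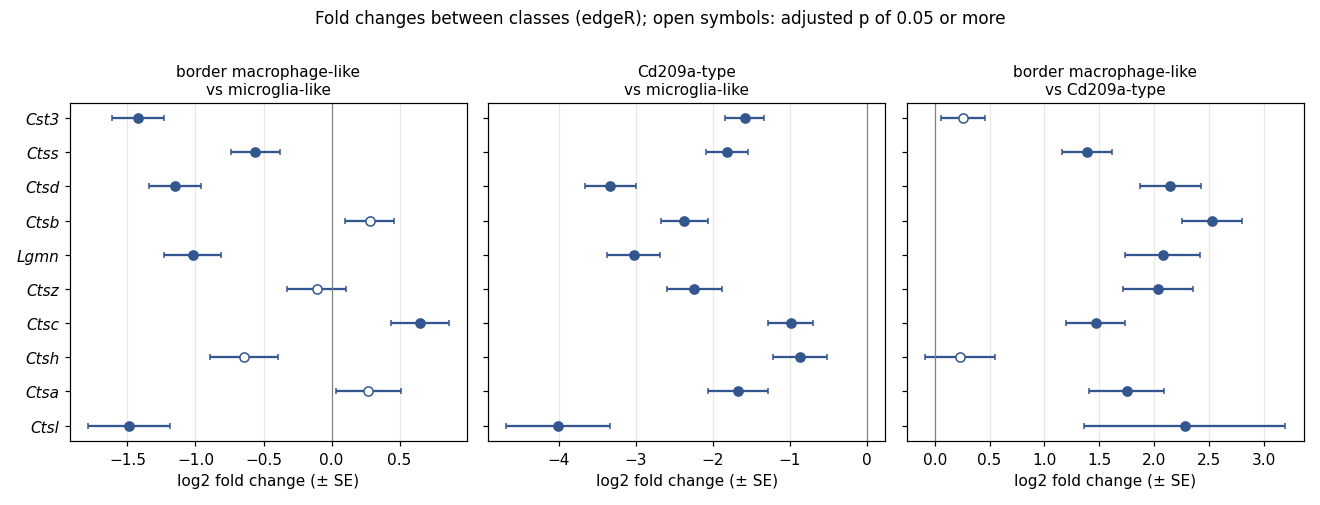
Log2 fold change (± SE, edgeR) of the 10 genes between classes in the same libraries; filled symbols have an adjusted p under 0.05 and open symbols do not. Ctsd, Ctsl, Lgmn, Ctss and Cst3 are lower in border macrophage-like than in microglia-like cells, and all 10 are lower in Cd209a-type than in microglia-like cells.

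As a share of UMIs, Cd209a-type cells held less of every one of the 10 transcripts than microglia-like cells. In UMIs per cell, Ctsh was at 1.17 against 1.13 and Ctsc at 1.43 against 1.48, and the other genes were lower. In 4 libraries (44 against 312 cells), 10 of 10 genes were lower and 0 higher, where 25.2% of the 417 genes tested were lower and 17.5% higher. The median was -2.03 for the 10 genes and 0.09 for all genes tested. Ctsl had the largest difference (log2 fold change -4.01 ± 0.67, adjusted p = 3.89e-06), with 0, 0.210, 0 and 1.13 per 10000 in the 4 libraries of Cd209a-type cells, 5 UMIs in all, compared with 3.33 to 7.64 in the same libraries of microglia-like cells. It passed the filter on low counts only through the microglia-like sums. Ctsl could therefore only come out lower and adds little to the count of 10. Ctsb, Ctsd, Ctsz, Ctsa, Ctsh and Lgmn would not have passed this filter on the Cd209a-type sums alone either. Only Ctss, Ctsc and Cst3 would have passed it in both classes, so the count of 10 was partly set by the filter. Ctsd had 6.54, 4.82, 2.63 and 5.96 against 32.7, 38.7, 37.4 and 45.8 (-3.33 ± 0.33, adjusted p = 1.15e-10). Lgmn had 1.31, 3.15, 7.89 and 2.27 against 12.1, 19.3, 17.8 and 18.1 (-3.03 ± 0.34, adjusted p = 1.75e-09). No library of one class reached the other for these 3 genes, nor for any other of the 10 except Ctsh. The share of all genes without overlap is not given here.

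Ctsb (log2 fold change -2.37), Ctsz (-2.24), Ctss (-1.82), Ctsa (-1.67) and Cst3 (-1.59) were lower in 4 of 4 libraries. Cst3, at 128, 57.7, 103 and 57.3 per 10000, kept 39.2% of its microglia-like level, more than Ctsd with 12.6% or Ctsb with 25.7%. Ctsc (-0.99 ± 0.29, adjusted p = 0.00622) was lower in 4 of 4 libraries. Ctsh had the smallest difference (-0.87 ± 0.35, adjusted p = 0.0425) and was higher in AB5867, where 5 Cd209a-type cells gave 15.8 per 10000 against 4.54. Its call was kept under 4 of 13 alternatives and that of Ctsc under 8 of 13. Leaving out AB5863, which this comparison did not use, is among them and could not lose either call. Microglia markers in the Cd209a-type cells, which the gate itself keeps low, were at 6.0% of their microglia-like level. The Cd209a-type cells were deeper, with a median of 2160 UMIs. In cells of 500 to under 1000 UMIs, 10 Cd209a-type against 68 microglia-like cells, no gene was called by edgeR, with 7 genes higher and 37 genes lower before adjustment (p under 0.05). Of the 10 genes 8 could be tested there, 6 of them lower and 0 higher before adjustment, with a median log2 fold change of -2.04 (Ctsd -3.56 and Ctsb -3.04).

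Compared with Cd209a-type cells in AB5865 and AB5876 (109 against 33 cells), border macrophage-like cells held more of 8 of the 10 transcripts and less of none, where 22.5% of 845 genes tested were higher and 20.8% lower. This comparison shares its libraries with the preceding ones, and its p-values likewise rest mainly on a spread pooled over genes. The median was 1.90 for the 10 genes and 0.18 for all genes tested. Ctsb, at 45.9 and 29.4 per 10000 against 9.23 and 7.37, had a log2 fold change of 2.53 ± 0.27 (adjusted p = 3.62e-18). Ctsd (4.45-fold), Lgmn (log2 fold change 2.08), Ctsz (2.04), Ctsa (1.75), Ctsc (1.47) and Ctss (1.39) were higher in 2 of 2 libraries, and so was Ctsl (2.28 ± 0.92, adjusted p = 0.0341). Ctsl was at 0.210 and 1.13 per 10000 in these Cd209a-type cells. It passed the filter on low counts only through the border macrophage-like sums, so it could only come out higher. Cst3 (0.26, 95% interval -0.13 to 0.66) and Ctsh (0.23, -0.39 to 0.86) were not called. DESeq2 called 5 genes higher. Ctsh was slightly lower per 10000 in both libraries (5.15 and 4.97 against 5.66 and 5.39), so its sign depends on the scaling.

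Monocyte-like cells, 30 in all, had Ctss at 37.7 per 10000 (42.9 in AB5865 and 40.2 in AB5876) and Cst3 at 33.3 (34.5 and 34.1). Ctsb was at 14.4, Ctsc at 10.9, Ctsd at 7.76 and Lgmn at 2.44, which was 11 UMIs. MHC class II only cells had Cst3 at 58.1, Ctss at 44.6, Ctsb at 18.1, Ctsc at 13.2 and Ctsd at 11.9, with all 5 libraries having Cst3 above Ctss and Ctss above Ctsb. Ctsc and Ctsd had overlapping intervals in both classes. Over all cells of each class, Ctsc stood at 103% and 125% of its microglia-like level and Ctsd at 18.3% and 28.1%. For MHC class II only cells the libraries disagreed, with Ctsc from 33.9% to 143% and Ctsd from 14.9% to 77.1%. These 2 classes were not tested.

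Neutrophil-like cells had the least, 46.3 per 10000 for the 10 genes together. In AB5864, AB5867 and AB5876 (27 against 196 microglia-like cells), 8 of the 10 genes passed the filter on low counts and 3 were lower, where 16.6% of 193 genes tested were lower and 20.2% higher. None was higher. The median of all genes tested was -0.68, and the fold changes are to be read beside it. They also depend on how edgeR scales the sums, and for Cst3 and Ctss they are smaller than the levels per 10000 give. By library, Cst3 per 10000 was at 0.0874 to 0.0977 of its microglia-like level and Ctss at 0.173 to 0.181. Cst3 was at 19.9, 22.9 and 14.3 per 10000 against 228, 234 and 153 (log2 fold change -2.49 ± 0.60, adjusted p = 0.000294). Ctss had 10.4, 11.4 and 11.7 against 58.1, 63.3 and 67.3 (-1.52 ± 0.55, adjusted p = 0.0204). Lgmn (-2.47 ± 0.80, adjusted p = 0.0103) rested on 3 UMIs in the neutrophil-like cells. It passed the filter only through the microglia-like sums, so it could only come out lower. Without AB5864, which gave 14 of the 30 cells, none of these calls was made, although the log2 fold changes were -2.76 for Cst3, -1.84 for Ctss and -2.02 for Lgmn with the 2 libraries left, and without AB5867 there were 6 calls. The 10 genes stood at 6.50% to 23.3% of their microglia-like level, beside microglia markers at 11.2%.

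Within the microglia-like class, cells were divided at 50 UMIs per 10000 of the MHC class II genes H2-Aa, H2-Ab1, H2-Eb1 and Cd74, into 142 high and 206 low cells, since cathepsin S and its relatives act on the antigen presentation pathway. Of these cells, 104 lay between 25 and 100 per 10000, near the cut. No member passed the threshold with edgeR in the 5 libraries. Of 231 genes tested 0.866% were higher and 0% lower, and 9 of the 10 genes were tested, without Ctsl. Before adjustment (p under 0.05), 1 of the 9 was higher and 4 were lower, where 24 and 17 of all 231 genes were. DESeq2 called 1 of the 9 higher and 2 lower, and 6 and 3 of all 231. A minimum of 1000 UMIs per cell left 73 and 101 cells of AB5865 and AB5876. There edgeR called 1 of the 10 genes higher and 5 lower, where 25 and 22 of 1311 genes tested were.

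Ctsc was higher in the MHC class II high cells in 5 of 5 libraries, at 34.1, 16.9, 13.1, 17.2 and 11.7 per 10000 compared with 13.4, 1.14, 7.91, 4.55 and 7.36 (log2 fold change 1.20 ± 0.30, adjusted p = 0.0556). The value of 1.14 in AB5864 came from only 10 low cells. Ctsd was lower in 5 of 5, at 49.3, 25.2, 26.5, 30.8 and 30.0 compared with 63.0, 53.4, 49.2, 41.5 and 57.5 (-0.80 ± 0.18, adjusted p = 0.0529). Cst3 was also lower in 5 of 5, at 185, 191, 124, 115 and 114 compared with 251, 332, 156, 309 and 183 (-0.78 ± 0.19, adjusted p = 0.0556). Within a library each of these 3 genes kept 1 direction, while the ranges over libraries overlapped. Ctss, the protease of the invariant chain, was lower in 5 of 5 libraries with a log2 fold change of -0.40 (95% interval -0.72 to -0.08, adjusted p = 0.228). The high cells held fewer microglia markers (101 per 10000 against 144) and more border macrophage markers (7.94 against 4.83), and the part of this in the differences was not tested. Their median depth was 1266 UMIs against 1030.

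**Figure D4:**
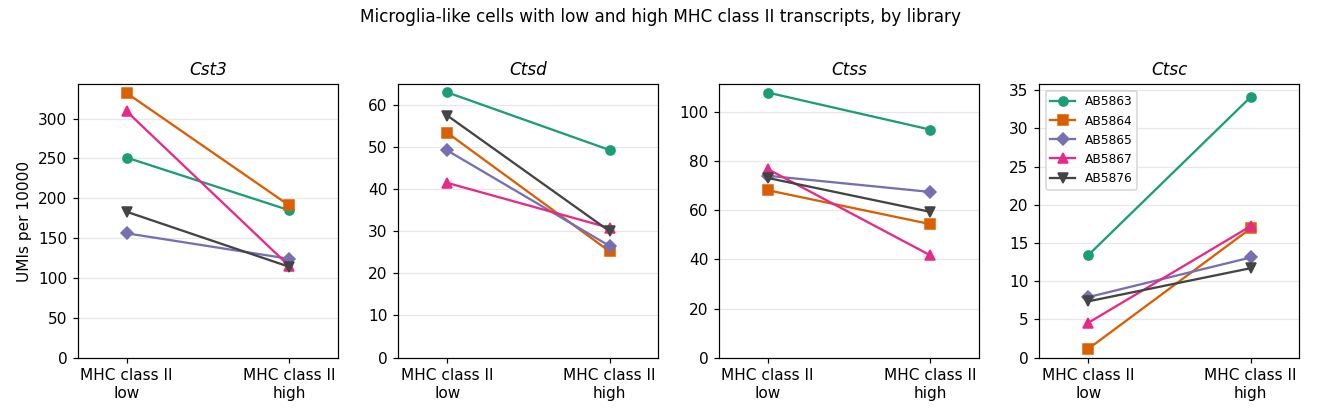
Levels of Cst3, Ctsd, Ctss and Ctsc (UMIs per 10000, linear axes from 0) in microglia-like cells with low and high MHC class II transcripts; each line is a library. Ctsc is higher and the other 3 are lower on the right in all 5 libraries, but none passed the threshold with edgeR.

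In border macrophage-like cells the same division gave 79 high and 34 low cells. Ctsd was at 12.3 and 13.7 per 10000 in the high cells and 35.0 and 30.7 in the low cells of AB5865 and AB5876. Ctss went the other way, at 57.2 and 44.4 in the high and 32.3 and 35.1 in the low cells. Neither pair overlapped. Over all low cells Ctsb (40.5 per 10000, interval 34.4 to 47.3) was above Ctss (33.3, 27.8 to 39.5) and Ctsd (33.0), with intervals that overlapped. Ctsb was the first protease in AB5865 (52.3) and Ctss in AB5876 (35.1 against 30.7), so Ctss did not lead throughout the class. This division was described and not tested.

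The other genes of the pathway ranged widely in abundance, from Cd74 (10477 UMIs), Psap (1384), H2-DMa (770) and H2-DMb1 (572) to genes without a UMI. Cd74 was used in the gates and was not counted as tested. The cathepsins Ctse, Ctsf, Ctsg, Ctsk, Ctso and Ctsw had between 1 and 78 UMIs each, and of these 6 only Ctsf could be tested, in 1 comparison (log2 fold change 0.45 in border macrophage-like against microglia-like cells, adjusted p = 0.884). Of 6 other lysosomal peptidases, Napsa, an aspartic protease, was higher in Cd209a-type than in microglia-like cells (3.32 ± 0.65, adjusted p = 5.26e-05) and lower in border macrophage-like than in Cd209a-type cells (-5.33 ± 1.05, adjusted p = 5.91e-06). Tpp1, Scpep1 and Prcp were not called in any comparison in which they were tested. Of 10 protease inhibitors, Cstb (-0.33, adjusted p = 0.880) and Cst7 (-3.29 ± 1.35, adjusted p = 0.144) were tested in border macrophage-like against microglia-like cells, and neither was called.

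Among 5 genes of antigen processing, H2-DMa, a subunit of the peptide exchanger of MHC class II, was higher in border macrophage-like than in microglia-like cells (0.97 ± 0.26, adjusted p = 0.00448). Ifi30, a lysosomal thiol reductase, was higher in Cd209a-type than in microglia-like cells (1.04 ± 0.38, adjusted p = 0.0249), and Ifi30 and H2-Oa were lower in border macrophage-like than in Cd209a-type cells (-1.10 and -3.06). H2-DMb1 was higher in MHC class II high than in low microglia-like cells (1.99 ± 0.39, adjusted p = 0.0259), in a division made on genes of the same pathway. Among 7 genes of sorting and lysosomal gene control, Psap, the precursor of the saposins, was lower in Cd209a-type than in microglia-like cells (-1.24 ± 0.31, adjusted p = 0.00144) and higher in border macrophage-like than in Cd209a-type cells (0.96 ± 0.28, adjusted p = 0.00335). Of these 7, 4 were tested and 0 called by edgeR in border macrophage-like against microglia-like cells. The 5 lists were otherwise without a call in the 5 comparisons.

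Likeness across the data was described for Ctss, Ctsd and Ctsl over 21 sums of library and class, against 247 genes with at least 500 UMIs. The sums share libraries, classes and depth. Ctss was most like Rgs10 (Pearson r = 0.915), Selenop (0.915) and Rnase4 (0.892). Ctsd was most like Cx3cr1 (0.83), Sirpa (0.798) and Trem2 (0.778). Ctsl was most like Marcks (0.900), Selenop (0.849) and Trem2 (0.828). Among the 10 genes, Ctsd went most closely with Lgmn (0.816), Ctsa (0.787) and Ctsl (0.784), less with Ctsb (0.637), and hardly with Ctsh (0.0833).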

How the data were processed

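The deposited tables hold UMI counts, a row per gene and a column per well, which the authors extracted from demultiplexed, mapped and filtered MARS-seq reads and did not normalize. Per the submitters' processing notes, bcl2fastq 2.15.0.4 and the build mm10 were used (aligner: not given in the sources used here). Wells with 1 cell and at least 500 UMIs outside the ERCC spike-ins were kept, without a doublet caller, since doublets were excluded in the sort. No well carries a treatment or a mouse, so p-values refer to spread between library sums, which may be technical, and not between mice. This spread is pooled over genes by edgeR. In comparisons of 2 libraries a gene's own values hardly enter it, so a small p-value there reflects the pooled spread.

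Cells were classed by fixed marker UMIs. Classes with at least 5 cells in a library were summed, and sums were compared within libraries by edgeR 4.0.16 (quasi-likelihood, TMM, filterByExpr, library as a block, Benjamini-Hochberg over all genes tested, gate genes not counted), with DESeq2 1.42.0 as an alternative. A gene was called at an adjusted p under 0.05. Pairing of sums by library comes from the plate that both were sorted into. The fit was also run on counts simulated with a fixed spread and no difference between libraries other than depth. That setting is simpler than these data. Likeness used log2(UMIs per 10000 + 1). Gene positions are from GENCODE on GRCm38.

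All 10 genes are named, with up to 3 of each of 5 pathway lists (those with most UMIs), pathway genes that were called, and the 3 genes most like each of Ctss, Ctsd and Ctsl. The likeness of Cst3 is not reported here. The members and lists were chosen with earlier results of these data known. Other settings were other UMI minimums, gates and filters, DESeq2, no block, rows left out of the totals, and leaving out each library. The paper's text speaks of IgG2b-treated and anti-PD-L1-treated cells, while the labels give anti-PD-L1 alone.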

Additional observations from a re-analysis of the deposited data

Results flagged for a closer look

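Lgmn in microglia-like cells was at 12.1 per 10000 in AB5864, far from the other 4 libraries, which lay between 17.8 and 19.3. It was the 1 such value among 30 groups of gene and class with 4 or more libraries. Chance gives about 1 in 20 groups, so 1 in 30 is no more than chance gives. AB5864 had 30 microglia-like cells.

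Wells without a cell, which no comparison used, held 7 UMIs of the 10 genes, 4 of them Cst3 and 1 each of Ctsb, Ctss and Ctsc. Wells with a cell but under 500 UMIs, 1075 in all, held 9275 UMIs of the 10 genes, or 351 per 10000. There Cst3 was at 163 per 10000 and Ctss at 70.6, compared with 104 and 53.7 in the kept cells.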

How the results depend on the processing

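Ctss stayed the leading protease in 64 of 66 alternatives over the 6 classes. The exceptions were neutrophil-like cells without AB5864 and with a minimum of 1000 UMIs, where Ctss and Ctsd were level (log2 ratio 0.00). The log2 ratio of Ctss to Ctsb in Cd209a-type cells rose from 1.6 to 3.08 in cells with 500 to under 1000 UMIs, a setting chosen after seeing the data, and to 2.66 with gates on cells thinned to 500 UMIs. Leaving out 1 library gave 0.63 to 0.85 for the log2 ratio of Ctss to Ctsd in microglia-like cells. In border macrophage-like against microglia-like cells, 2 genes were called lower by DESeq2 and 3 with a minimum of 300 or of 1000 UMIs. The 1 gene called higher, Ctsc, fell to 0 with DESeq2, cells of 500 to under 1000 UMIs, gate minimums doubled, thinned gates, genes with at least 10 UMIs, either other UMI minimum and no replicate block. Without the block 4 genes were lower there, Ctss being lost, and 9 in Cd209a-type against microglia-like cells, Ctsh being lost, and no other call changed. That last comparison gave 0 in cells of 500 to under 1000 UMIs, with fewer cells and a median over the tested members of -2.04 against -2.03, and border macrophage-like against Cd209a-type cells gave 5 higher by DESeq2 and 5 with a minimum of 300 UMIs. For MHC class II high against low cells, DESeq2 gave 1 higher and 2 lower, where 6 and 3 of 231 genes tested were. A minimum of 1000 UMIs gave 1 and 5, where 25 and 22 of 1311 were. A minimum of 300 UMIs gave 1 lower, where 4 of 373 were. Totals without Gm42418, Gm26917, mitochondrial and neutrophil genes gave 2 lower, where 3 of 234 were. Leaving out 1 library gave 0 to 1 lower. For neutrophil-like cells the lower count was 5 with thinned gates, 7 with genes of at least 10 UMIs, 6 with a minimum of 300 UMIs and 0 to 6 when 1 library was left out. Fold changes that turned direction, none of them called, were Ctsa (-0.14, minimum of 1000 UMIs) and Ctsz (0.13, thinned gates, and 0.00, minimum of 1000 UMIs) in border macrophage-like against microglia-like cells, and Ctsb (0.28, 500 to under 1000 UMIs, and 0.08, thinned gates) and Ctsh (-0.19 and -0.05, minimums of 1000 and 300 UMIs) in the MHC class II division. The cause of these changes was not tested. Border macrophage-like comparisons rest on AB5865 and AB5876, and leaving out either leaves 1 library and no test. Leaving out any other library left those fits unchanged. A minimum of 1000 UMIs left no test of neutrophil-like cells. Classes of 30 to 46 cells hold 1 to 11 UMIs of the rarest members, which limits what could be seen.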
